A study of Mus musculus with 6 samples.

Results

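The mouse E2F and DP transcription factor genes, E2f1 to E2f8 with Tfdp1 and Tfdp2, were followed in the retinae of Rb1/p107 DKO mice and of Rb1/p107/Hells TKO mice. The 10 genes were chosen by name as the complete families of E2F subunits and of their DP dimerization partners, out of 24062 genes in the counts table. In TKO retinae, E2f1 and E2f2, which encode activators of S-phase genes, and E2f7 and E2f8, which encode the atypical repressors, had between 3.49-fold and 3.72-fold lower transcript levels than in DKO retinae. The partner genes Tfdp1 and Tfdp2 had smaller estimated folds, 1.47-fold and 1.77-fold lower, and E2f4, a repressor used in quiescent cells, was 1.29-fold higher in TKO. E2f3, E2f5 and E2f6 did not pass the test.

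E2F proteins bind DNA as heterodimers with a DP protein and sit at the end of the RB pathway. In resting cells the pocket proteins RB, p107 and p130 hold E2F complexes at the promoters of S-phase genes and keep them silent, and phosphorylation of the pocket proteins by cyclin-dependent kinases releases the activators E2F1, E2F2 and E2F3. E2F4 and E2F5 act mainly with pocket proteins as repressors, E2F6 represses through Polycomb-type complexes without a pocket protein, and E2F7 and E2F8 bind DNA without DP. Several E2F genes, among them E2f1, E2f2, E2f7 and E2f8, are themselves transcribed in late G1 or S phase as targets of E2F. In the retina, progenitor cells divide before birth and for some days after it, and loss of Rb1 together with p107 in progenitors leads to retinoblastoma in mice.

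The study asked what removal of the chromatin remodeler HELLS does to retinae that lack RB and p107. DKO retinae carried Chx10-Cre with floxed Rb1 alleles and were null for p107, and TKO retinae carried in addition floxed Hells alleles whose exon 12 is removed by the same Cre. All 6 retinae were taken at P21 (postnatal day 21), their strain was labelled C57BL/6 (C57BL/6N in the study's methods), and the p107 deletion was germline in both groups. Each group had 3 retinae with 1 RNA-seq library each. Chx10-Cre acts in retinal progenitors in a mosaic pattern, so each retina also holds unrecombined cells, and there was no retina with intact Rb1 and p107 in the comparison. The labels number the retinae but do not say that they came from separate animals, so p-values measure only the spread between these 6 libraries.

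The libraries held between 10343907 and 14203098 counts on genes. Hells had normalized counts of 60.8, 68.4 and 83.5 in the TKO group and of 678, 523 and 395 in the DKO group, each in the order of replicates 1 to 3. The groups did not overlap in the direction of the labels, but these counts cover the whole gene and do not check the loss of exon 12 itself. A normalized count is a count scaled to a common library size with edgeR's TMM factors. Rod markers were detected in each library, and their summed level ranged from 24290 to 50010 CPM (counts scaled to a common total) in TKO and from 8249 to 15810 in DKO. Summed markers of Muller glia ranged from 2826 to 3567 CPM in TKO and from 1488 to 1711 in DKO, and those of RPE from 7.47 to 24.4 and from 0.967 to 5.19. TKO replicate 2 stood apart in lens markers, with a summed level of 179 CPM against 25.7 and 31.9 in the other TKO libraries and at most 3.35 in DKO. Summed CPM of 10 markers of dividing cells was 47.7, 85.7 and 186 in TKO replicates 1 to 3 and 984, 714 and 451 in DKO replicates 1 to 3, and each of these 10 genes was lower in TKO. A bulk library cannot tell fewer cells of a type from less RNA per cell, and this holds for every level below.

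To show what the genes carry at their own promoters, the windows from 250 bases before to 50 bases after each RefSeq start site (GRCm38.p6) were searched for 4 E2F-type words on both strands: the word TTGGCGC, the word TTCCCGC, the word TTCGCGC and the word TTGCCGC. The words do not overlap within any match printed here. Windows were at hand for 8 of the 10 genes, all but E2f4 and E2f5. A match was found in 6 of their 12 windows, which belong to E2f2, E2f3, E2f7, E2f8 and Tfdp1, and 9.57% of all 32851 windows in the same table held one. The windows of Tfdp1 overlap and hold the same match, so that 1 site is counted in both. E2f7 had 3 matches, which begin at positions -223, -198 and -92 from its start site, and Tfdp1 had 1, which begins at -43. The 250 bases upstream of these starts are printed in gene orientation with matches in capitals, because E2f7 had the most matches and Tfdp1 is the partner gene with the higher level. E2f7 lies at chr10:110745189-110745438 and Tfdp1 at chr8:13338501-13338750, both on the plus strand.
E2f7: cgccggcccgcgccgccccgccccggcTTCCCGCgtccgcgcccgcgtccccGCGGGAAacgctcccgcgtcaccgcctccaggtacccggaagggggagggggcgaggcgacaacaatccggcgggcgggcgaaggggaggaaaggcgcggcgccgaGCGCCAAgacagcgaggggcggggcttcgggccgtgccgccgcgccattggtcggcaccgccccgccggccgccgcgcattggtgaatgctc
Tfdp1: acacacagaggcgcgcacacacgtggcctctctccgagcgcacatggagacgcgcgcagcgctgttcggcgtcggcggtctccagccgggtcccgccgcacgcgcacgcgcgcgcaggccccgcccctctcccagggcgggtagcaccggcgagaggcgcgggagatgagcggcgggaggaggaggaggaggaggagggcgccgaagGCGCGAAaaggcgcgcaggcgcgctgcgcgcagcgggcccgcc

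Of the other matches, that of E2f8 begins at position -111 and that of E2f2 at 41. The RefSeq start of this E2f2 window lies at -120 from the start that GENCODE gives, so the match is upstream of the GENCODE start. E2f3 has matches that begin at -11 and at 19. These 30-base stretches, again with matches in capitals, place the same words in an atypical member, in an activator that fell in TKO and in E2f3, the activator that did not pass the test. They lie at chr7:48881690-48881719 on the minus strand, chr4:136172294-136172323 on the plus strand and chr13:29986056-29986085 on the minus strand. The stretch of E2f3 holds the first of its matches. The windows of E2f1, E2f6 and Tfdp2 held none of the 4 words. The RefSeq start used for E2f1 lies 466 bases inside the start that GENCODE gives, and those of the Tfdp2 windows lie 62430 and 62973 bases inside. A further window of E2f2 and a further window of E2f3 also held none. Their starts lie 8388 and 1672 bases inside the GENCODE starts.
E2f8: cagaggcgcggaTTGGCGCgcggggccccg
E2f2: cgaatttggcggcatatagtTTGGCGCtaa
E2f3: ttgaaaagccgGCGGGAAatctgagtttcg

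E2f1 and E2f2, the activators with cell-cycle-regulated transcription, were lower in TKO. E2f1 (ENSMUSG00000027490, chr2:154559407-154569892, minus strand) had normalized counts of 97.5, 179 and 296 in TKO (replicates 1 to 3) and of 761, 743 and 486 in DKO. The groups did not overlap, and TKO replicate 3 and DKO replicate 3 lay closest to each other, 1.64-fold apart. The means were 191 ± 99.7 and 664 ± 154 (SD, n = 3 each), which is -1.80 on the log2 scale (standard error 0.347, 95% interval -2.60 to -1.01, adjusted p = 0.0132 by edgeR's quasi-likelihood test). Without TKO replicate 2, DKO replicate 1 or DKO replicate 2 the adjusted p of E2f1 by edgeR rose to 0.0630, 0.0550 and 0.0578, and the log2 fold change stayed between -2.25 and -1.49 over the 6 fits that each leave out 1 retina.

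E2f2 (ENSMUSG00000018983, chr4:136172394-136196057, plus strand) had 48.2, 65.3 and 90.8 normalized counts for TKO replicates 1 to 3 and 329, 285 and 146 in DKO replicates 1 to 3. Its TKO libraries were again all below its DKO libraries, and DKO replicate 3 was the lowest of the DKO group. The means of 68.1 ± 21.5 and 253 ± 95.4 (SD, n = 3 each) differed by -1.90 on the log2 scale (standard error 0.337, adjusted p = 0.0107 by edgeR). The adjusted p of E2f2 was 0.0532 without TKO replicate 2 and 0.0507 without DKO replicate 2, with edgeR in both.

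E2f3, the remaining activator, did not pass the test. It had 550, 508 and 434 normalized counts for TKO and 535, 524 and 517 in DKO replicates 1 to 3, and the 3 DKO values lay inside the TKO range. Its log2 fold change was -0.08 (95% interval -0.32 to 0.16, adjusted p = 0.651 by edgeR), so a change of the size seen for E2f1 or E2f2 lay outside the interval of E2f3. The sign turned without TKO replicate 3, to 0.016. E2f3 (chr13:29906575-29986063, minus strand) gives rise to more than 1 protein isoform from separate promoters, and the counts per gene do not separate them.

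**Figure D1:**
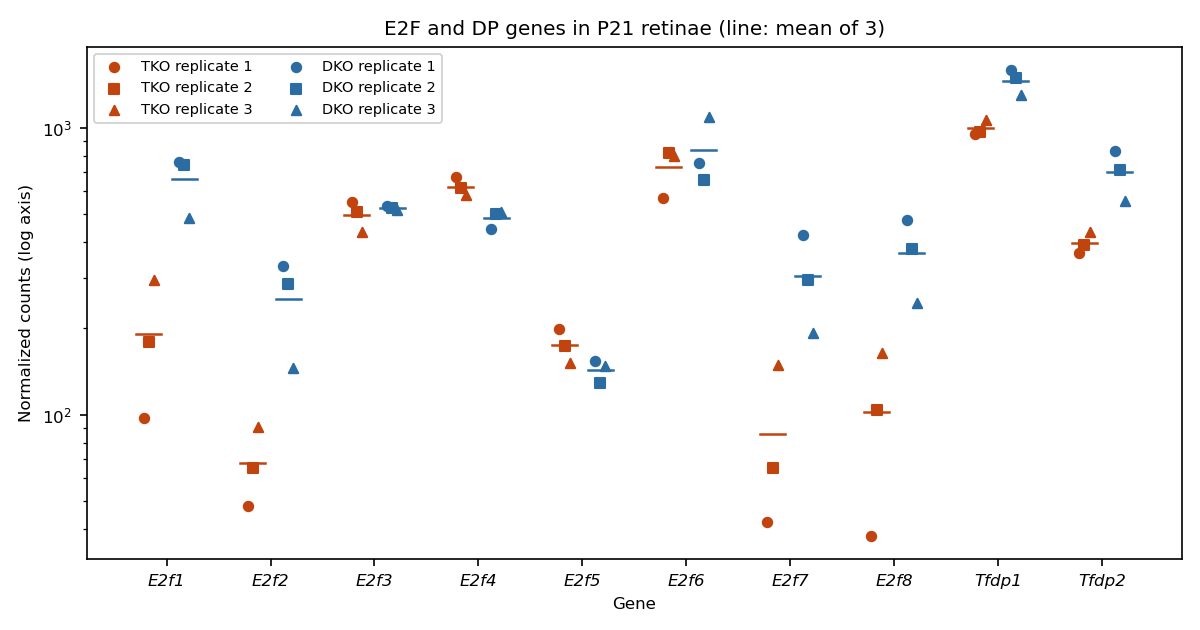
Normalized counts (log axis) of the 10 E2F and DP genes in each retina. Points are the 3 TKO and 3 DKO libraries and bars are group means. The TKO points of E2f1, E2f2, E2f7, E2f8, Tfdp1 and Tfdp2 lie below all DKO points, those of E2f4 lie above, and those of E2f3, E2f5 and E2f6 overlap.

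Among the repressors that act with pocket proteins, E2f4 was higher in TKO. E2f4 (ENSMUSG00000014859, chr8:105297663-105305370, plus strand) had 672, 615 and 584 normalized counts for TKO and 443, 502 and 510 in DKO replicates 1 to 3. The groups did not overlap, and replicates within a group differed by at most 1.15-fold. The means were 624 ± 44.6 and 485 ± 36.5 (SD, n = 3 each), which is 0.36 on the log2 scale (standard error 0.0974, 95% interval 0.14 to 0.59, adjusted p = 0.0389 by edgeR). This call was close to the threshold. With upper-quartile scaling the log2 fold change of E2f4 was 0.33 (adjusted p = 0.0505 by edgeR), and with total counts as the only scaling it was 0.20 (adjusted p = 0.154 by edgeR), a setting that also moved the median of all genes from -0.01 to -0.17. Of the 6 edgeR fits that leave out 1 retina, E2f4 passed in 2, without TKO replicate 3 (adjusted p = 0.0338) and without DKO replicate 3 (0.0431), and its adjusted p reached 0.125.

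E2f5 (chr3:14578641-14606309, plus strand), whose product also acts mainly with pocket proteins, had 198, 174 and 151 normalized counts for TKO and 154, 129 and 148 in DKO. TKO replicate 3 fell inside the DKO range, and the log2 fold change of 0.28 did not pass (95% interval -0.07 to 0.64, adjusted p = 0.241 by edgeR). Exons of E2f5 overlap those of 1810022K09Rik on the opposite strand, which had between 151 and 232 raw counts per library, and without a stated strand setting reads in the overlap cannot be assigned to either gene with certainty. E2f6 (chr12:16810963-16839742, plus strand), the repressor that works without pocket proteins, had 571, 817 and 794 normalized counts for TKO and 752, 660 and 1093 in DKO. DKO replicate 3 was its highest library and TKO replicate 1 its lowest, and the other TKO values lay between the DKO values. The log2 fold change of E2f6 was -0.20 (95% interval -0.66 to 0.27, adjusted p = 0.531 by edgeR), and it turned to 0.043 without DKO replicate 3.

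Both atypical genes were lower in TKO. E2f7 (ENSMUSG00000020185, chr10:110745439-110787384, plus strand), whose upstream sequence is printed above, had 42.4, 65.3 and 149 normalized counts for TKO replicates 1 to 3 and 422, 296 and 193 in DKO replicates 1 to 3. TKO replicate 3 and DKO replicate 3 were only 1.30-fold apart, the narrowest gap of the 4 strongly lowered genes. Its means of 85.4 ± 55.8 and 304 ± 114 (SD, n = 3 each) gave a difference of -1.84 log2 units (standard error 0.441, 95% interval -2.85 to -0.83, adjusted p = 0.0266 by edgeR). Leaving out 1 retina left E2f7 past the threshold only without TKO replicate 3 or without DKO replicate 3, and the adjusted p by edgeR ranged from 0.00395 to 0.105. With robust dispersion estimates it was 0.0624.

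E2f8 (ENSMUSG00000046179, chr7:48866429-48881596, minus strand) had 37.8, 104 and 164 normalized counts for TKO replicates 1 to 3 and 475, 377 and 245 in DKO replicates 1 to 3. The libraries took the same order as for E2f7, and the TKO values themselves spread 4.34-fold. The means of 102 ± 63.3 and 366 ± 116 (SD, n = 3 each) gave a difference of -1.84 log2 units (standard error 0.440, 95% interval -2.85 to -0.84, adjusted p = 0.026 by edgeR). E2f8 missed the threshold without TKO replicate 2, DKO replicate 1 or DKO replicate 2 (adjusted p up to 0.0958 by edgeR) and with robust dispersion estimates (0.0657). Exons of E2f7 and E2f8 overlap noncoding genes on the opposite strand, and that of E2f7, 1700020G17Rik, had no count in any library. The ratio of E2f7 to E2f8 raw counts within a library was 1.12, 0.626 and 0.903 in TKO and 0.887, 0.784 and 0.789 in DKO, so that the ranges of the 2 groups overlapped.

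The partner genes Tfdp1 and Tfdp2, whose products dimerize with E2F1 to E2F6, also fell, with smaller estimated folds than the 4 genes above. Tfdp1 (ENSMUSG00000038482, chr8:13338751-13378448, plus strand) had 952, 969 and 1063 normalized counts for TKO and 1586, 1493 and 1296 in DKO replicates 1 to 3. The TKO values of Tfdp1 spread only 1.12-fold and all lay below the DKO values. Its means of 995 ± 59.6 and 1458 ± 148 (SD, n = 3 each) gave a difference of -0.55 log2 units (standard error 0.0958, 95% interval -0.77 to -0.33, adjusted p = 0.0103 by edgeR).

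Tfdp2 (ENSMUSG00000032411, chr9:96196275-96323646, plus strand) had 365, 392 and 432 normalized counts for TKO replicates 1 to 3 and 830, 712 and 555 in DKO replicates 1 to 3. These groups also did not overlap, with means of 396 ± 33.9 and 699 ± 138 (SD, n = 3 each). The log2 fold change of Tfdp2 was -0.82 (standard error 0.150, 95% interval -1.16 to -0.48, adjusted p = 0.0116 by edgeR). Both partner genes missed the threshold without TKO replicate 2 or DKO replicate 2, where the adjusted p by edgeR reached 0.0527 for Tfdp1 and 0.0548 for Tfdp2. The ratio of Tfdp1 to Tfdp2 raw counts was 2.61, 2.48 and 2.46 in TKO and 1.91, 2.10 and 2.33 in DKO, so that Tfdp1 made up more of the pair in each TKO library.

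**Figure D2:**
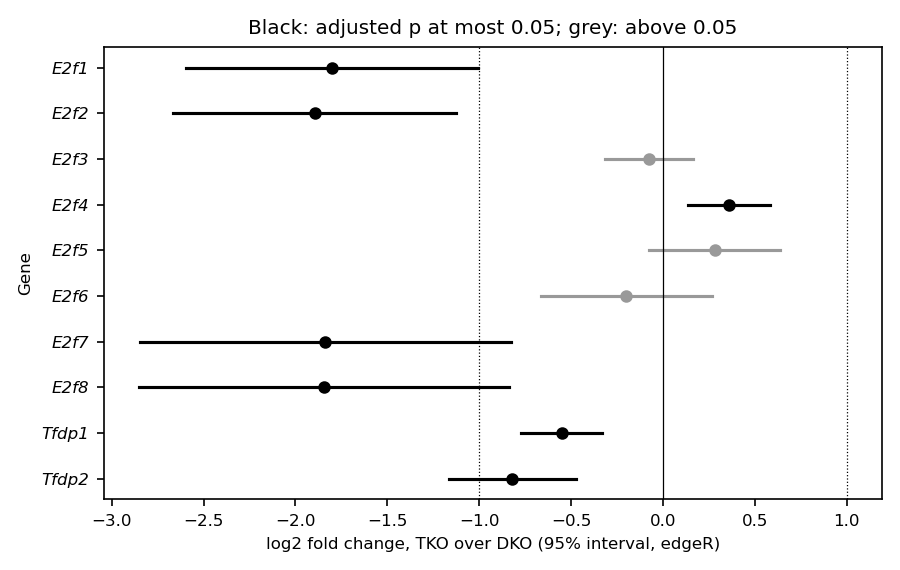
Log2 fold change (TKO over DKO) of the 10 genes with 95% intervals from edgeR's quasi-likelihood fit, in black where the adjusted p was at most 0.05 and in grey elsewhere, with dotted lines at -1 and 1. The intervals of E2f1, E2f2, E2f7 and E2f8 lie wholly below -0.83, those of Tfdp1 and Tfdp2 between -1.16 and -0.33, and that of E2f4 is above 0.

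Counted together, 6 of the 10 genes were lower and 1 was higher in TKO at an adjusted p of at most 0.05 by edgeR, where 9.2% and 7.35% of all 16904 genes tested were. E2f1, E2f2, E2f7 and E2f8 also met the study's criteria for differential expression, which add a change of 1 log2 unit or more and 10 or more normalized counts on average, and 4.38% of all genes met these in that direction. The TKO values of 6 genes lay wholly below and those of 1 wholly above the DKO values, against 20.6% and 18% of all genes. The median log2 fold change was -0.69 over the 10 genes and -0.01 over all genes tested. The count of 6 lower genes was 5 without TKO replicate 1 and 3 without DKO replicate 1. Without TKO replicate 2 or without DKO replicate 2 it was 0 at the adjusted threshold and 6 at an unadjusted p under 0.05, with edgeR. DESeq2 on all 6 libraries gave 6 lower and 1 higher.

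**Figure D3:**
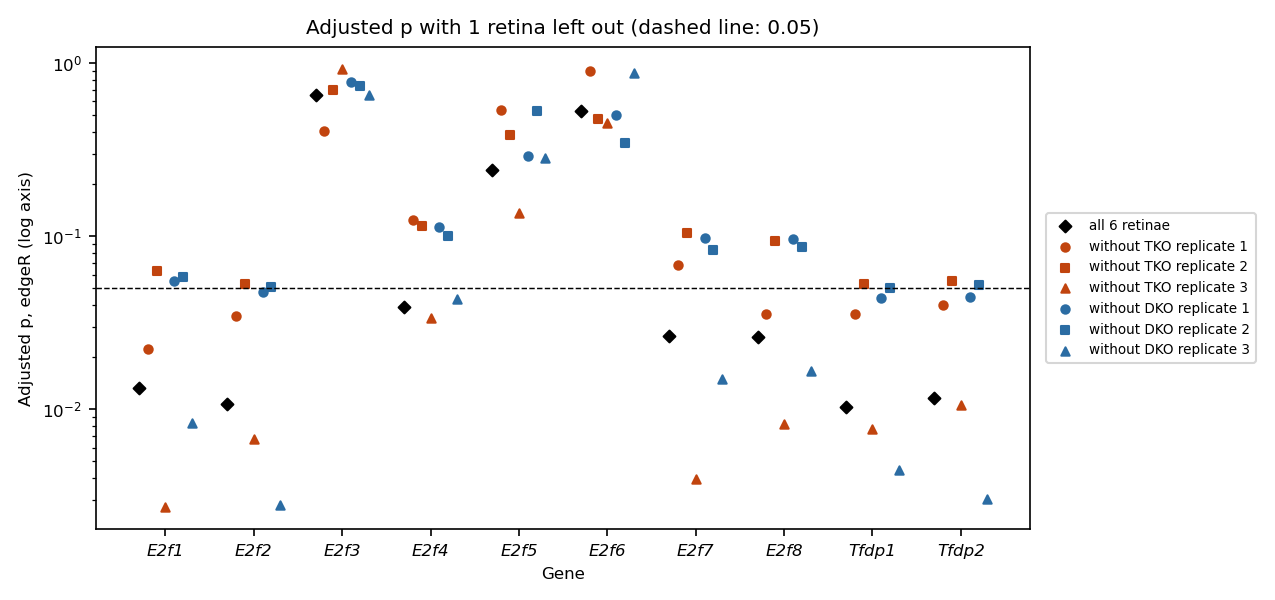
Adjusted p (log axis) of the 10 genes by edgeR with all 6 retinae and with each retina left out in turn, with the threshold of 0.05 as a line. E2f1, E2f2, E2f7, E2f8, Tfdp1 and Tfdp2 lie above the line without TKO replicate 2 and without DKO replicate 2.

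The order of the libraries within a group was the same for E2f1, E2f2, E2f7 and E2f8. TKO replicate 1 was the lowest and TKO replicate 3 the highest TKO library in 4 of these 4 genes, and DKO replicate 1 was the highest and DKO replicate 3 the lowest DKO library. The markers of dividing cells took that order too, as did the summed level of 23 E2F target genes of G1 and S phase, at 413, 546 and 788 CPM in TKO and 1974, 1808 and 1266 in DKO. Rod markers ran the opposite way in TKO, and in DKO they were highest in replicate 3, with 50010, 42660 and 24290 CPM in TKO and 8507, 8249 and 15810 in DKO. The part of dividing cells, rods, Muller glia and RPE in the levels of the E2F genes was not tested. Within a library, the ratio of E2f1 to Top2a, the marker of dividing cells with the largest fall of the 10, was 0.739, 0.776 and 0.554 in TKO and 0.193, 0.277 and 0.295 in DKO. E2f1 was thus higher relative to Top2a in each TKO library, but the size of this difference depends on the choice of Top2a. The log2 fold changes of the 10 markers ran from -3.21 (Top2a) to -2.29, so all fell more than E2f1 at -1.80. Those of the 23 target genes ran from -2.68 to -0.88, on both sides of E2f1. The ratio therefore does not measure E2f1 per dividing cell. Against Tfdp1, E2f1 was lower, with ratios of 0.102, 0.185 and 0.278 in TKO and 0.480, 0.498 and 0.375 in DKO.

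Levels can be compared between genes once counts are divided by exonic length, as RPKM (counts per kilobase of exon, scaled by library size). In DKO retinae the order by mean RPKM was Tfdp1 (31.4), E2f1 (16.6), E2f4 (15.6), E2f6 (11.7), E2f3 (7.65), E2f5 (6.37), E2f8 (5.32), E2f2 (4.10), Tfdp2 (3.94) and E2f7 (2.67). Neighbours in this order had separate ranges over the 3 DKO libraries only for Tfdp1 over E2f1, E2f6 over E2f3 and E2f3 over E2f5. In TKO retinae Tfdp1 (21.4) was followed by E2f4 (20.1), and E2f1 stood in place 6 at 4.78 RPKM. Ranges in the TKO order were separate only for E2f4 over E2f6 and, barely, for E2f1 over Tfdp2 (lowest 2.443 against highest 2.434 RPKM). With all exons, E2f7 was at the bottom of both orders, with 0.749 RPKM in TKO. The order depended on the length used. With the longest transcript instead, E2f2 had a smaller mean share of the E2F counts per length than E2f7. The shares were 4.599% against 4.766% in DKO and 1.622% against 1.741% in TKO. E2f6 then had the largest mean share in DKO, at 24.14% against 21.19% for E2f4 and 20.82% for E2f1. The ranges over the libraries overlapped in each of these comparisons.

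The composition of the E2F family within a library does not depend on scaling between libraries. Of the E2F counts per exonic length, the activators E2f1 to E2f3 made up 22.2%, 24.0% and 27.4% in TKO replicates 1 to 3 and 43.3%, 44.1% and 33.7% in DKO replicates 1 to 3. E2f4 and E2f5 together made up 60.2%, 51.0% and 46.0% in TKO and 28.4%, 31.2% and 35.1% in DKO. E2f7 and E2f8 made up 1.82%, 3.87% and 6.65% in TKO and 14.3%, 11.5% and 8.02% in DKO.

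The groups therefore did not overlap for any of these 3 classes, while the share of E2f6 did overlap, at 15.8% to 21.1% in TKO and 13.2% to 23.3% in DKO. The shares of a library add up to a fixed total, so a fall in 1 class raises the others, and the classes are not separate observations. Within the activators E2f3 went the other way, with a mean share of 13.65% in TKO and 10.94% in DKO and overlapping groups. E2f1 alone accounted for 8.83% ± 4.29 in TKO and 23.6% ± 4.38 in DKO (SD, n = 3 each), and E2f4 for 37.8% ± 4.55 and 22.5% ± 2.99. Within the DP pair, Tfdp1 made up 90.6% ± 0.275 in TKO and 88.9% ± 0.984 in DKO. These shares were not tested, and an exact permutation test of 3 against 3 libraries cannot give a p below 0.1. Without scaling of any kind, E2f1 had 0.145, 0.291 and 0.506 raw counts for each count of E2f4 in TKO and 1.72, 1.48 and 0.953 in DKO, a mean log2 difference of -2.28.

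**Figure D4:**
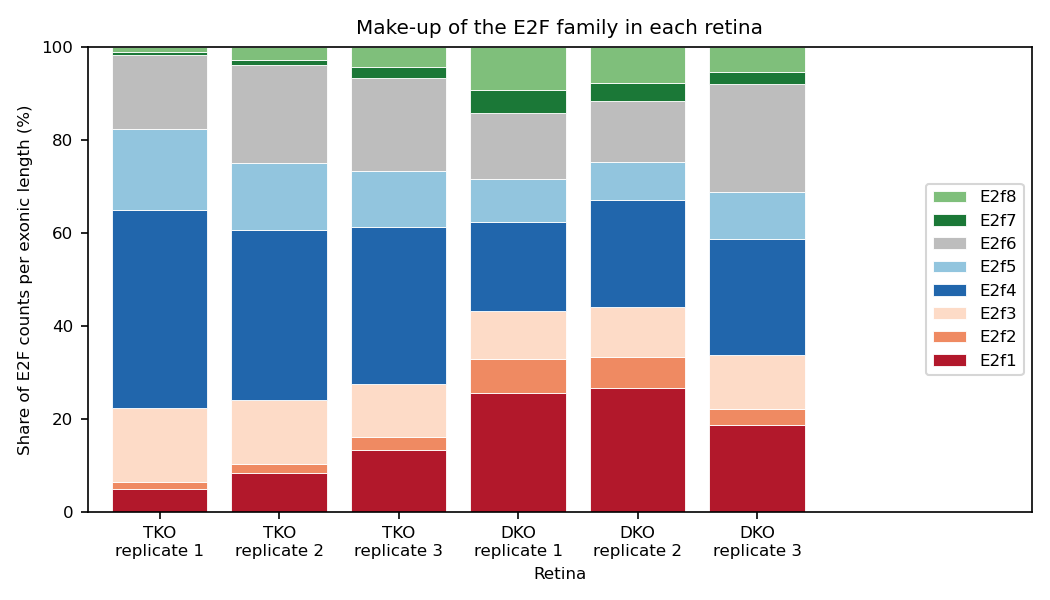
Share (%) of each E2F gene in the E2F counts per exonic length of each library, with 1 stacked bar per retina. In the 3 TKO libraries E2f4 and E2f5 make up 46.0% to 60.2%, and in the 3 DKO libraries E2f1 to E2f3 make up 33.7% to 44.1%.

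The regulators of the E2F proteins were counted next. Of the pocket protein genes, Rbl2, which encodes p130, was higher in TKO (log2 fold change 0.31, adjusted p = 0.0218 by edgeR), as was Rb1 (0.34, adjusted p = 0.0388), whose floxed exon is removed in both groups and whose other exons are still counted. Rbl1, which encodes p107 and is deleted in both groups, had a log2 fold change of 0.13 (adjusted p = 0.839). Of 9 genes for G1 cyclins, their kinases and CDC25A, 6 were lower and 3 did not pass, with a median log2 fold change of -1.08. Cdk2, the kinase of cyclin E and cyclin A, was at -1.75, the phosphatase gene Cdc25a at -1.54, Ccnd2 at -1.41 and Cdk4, the kinase of D cyclins, at -1.08, whereas Ccnd3 was at 0.02 without passing.

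Inhibitors of these kinases were also lower, 5 of 7, with a median log2 fold change of -1.01. Cdkn1a, which encodes p21, was at -1.45 and Cdkn2c, which encodes p18, at -1.39, while Cdkn1b, which encodes p27, was at 0.01 and did not pass. Cdkn2a, which encodes p16 and p19ARF and is a known target of E2F repression and activation, had 1, 1 and 2 raw counts in TKO and 26, 28 and 21 in DKO. Its DKO mean was 6.53-fold above a floor of 3 counts per TKO library. This is not a lower limit, because it leaves out the spread between retinae and any error in DKO. The floor is also the allowance for a count of 0, whereas the TKO counts were 1 and 2. The fitted log2 fold change of Cdkn2a was -3.77 (95% interval -4.87 to -2.68 by edgeR). The median of the list is the same with Cdkn2a at that floor. Of 5 genes whose products take part in the turnover of E2F proteins or switch off their DNA binding, 4 were lower, among them Cdc20 (-2.93), Ccnf (-1.52), which encodes cyclin F, and Ccna2 (-1.32), and Fzr1 did not pass (-0.10). For reference, 9.2% of all genes tested were lower in TKO.

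Genes of the MuvB and E2F6 complexes went different ways. Of 7 genes for the MuvB core and for MYB and FOXM1 proteins that join it, 3 were lower and 4 did not pass. The lower ones were Foxm1 (log2 fold change -2.48), Mybl2 (-1.87) and Lin9 (-0.78), and only Lin9 belongs to the core. The median of the 7 genes was -0.29, and 9.2% of all genes tested were lower. Foxm1 and Mybl2 are transcribed in dividing cells, and Rbbp4, a histone-binding subunit, was at -0.20 without passing. Of 9 partners of E2F6 in its Polycomb-type complex, 2 were higher, Max (0.36) and Rybp (0.28), and 7 did not pass, with a median of 0.11, where 7.35% of all genes tested were higher. Of 5 germline genes known as E2F6 targets, 4 had enough counts for the test. Smc1b (-1.14) and Stag3 (-0.96), which encode meiotic cohesin subunits, were lower. The other 2 did not pass, and with at most 7 counts in a library they could hardly have shown a change.

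Known target genes of the activators were lower as a group. All 23 genes on a list of G1 and S-phase targets passed in the lower direction with edgeR, 22 of them by the 3 criteria. Of all genes tested, 9.2% passed in that direction and 4.38% by the 3 criteria. Log2 fold changes on the list ran from -2.68 to -0.88 with a median of -1.41. Tk1 (-2.68, thymidine kinase), Uhrf1 (-2.46, a reader of hemimethylated DNA), Rrm2 (-2.29) and Rrm1 (-1.30), the subunits of ribonucleotide reductase, Mcm6 (-2.12), a helicase subunit, and Pcna (-1.27), the polymerase clamp, were on it. Some of these genes are also on a list that the study drew from its own results on these libraries, so the count is not independent evidence of a direction. Without TKO replicate 2 the count was 10 of 23.

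Of 8 apoptotic targets of E2F1, 4 were lower and 4 did not pass, where 9.2% of all genes tested were lower. Among them Trp73, which encodes p73, was at -2.34, Casp8, an initiator of death receptor signalling, at -1.83 and Bcl2l11, which encodes BIM, at -0.71, and Apaf1 (-0.30) did not pass. The median over the 8 genes was -0.66, close to that of the 10 E2F and DP genes. Markers of microglia had summed levels of 47.2 to 79.9 CPM in TKO and 90.4 to 136 in DKO, with 3 of 4 lower in TKO, and their part in these values was not tested.

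**Figure D5:**
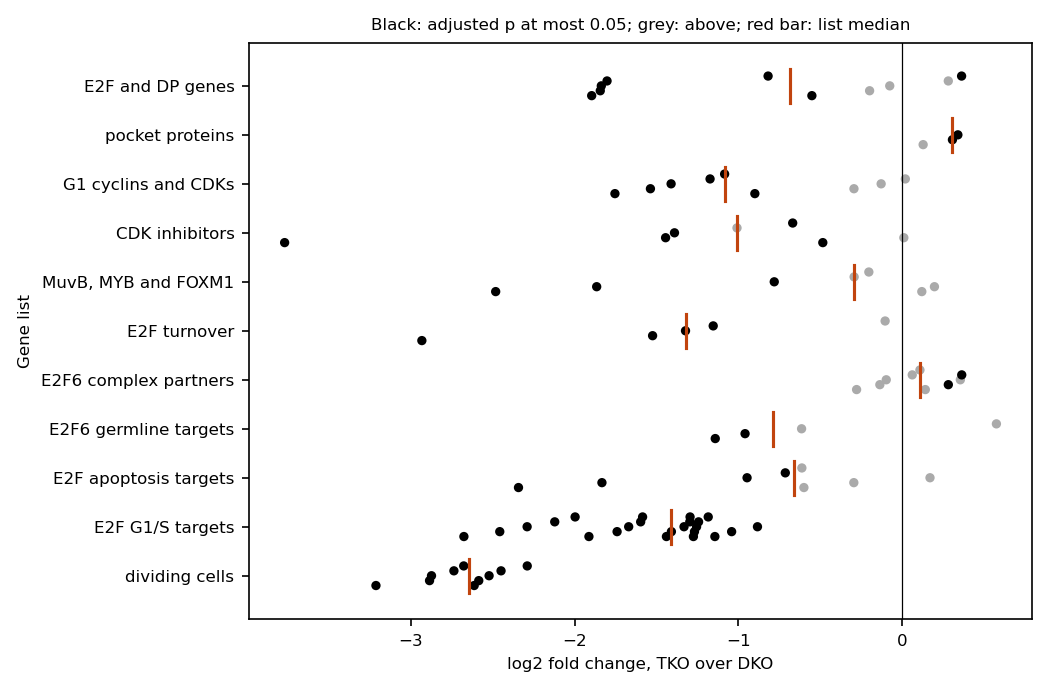
Log2 fold change (TKO over DKO) of every tested gene of each list, with the median of the list as a red bar. Black points passed an adjusted p of at most 0.05 by edgeR and grey ones did not, and the leftmost point, Cdkn2a, is a fitted value that rests on at most 2 counts in a TKO library. All 23 G1 and S-phase targets lie below 0, and the E2F6 complex partners lie between -0.28 and 0.36.

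Genes whose pattern over the 6 libraries was most like that of a member were found by the root-mean-square difference of centred log2 CPM among 12902 genes with 50 or more normalized counts on average. Closest to E2f1 were Ung (0.0674 log2 units), Cdk2 (0.0825) and Cdc6 (0.0846), closest to E2f2 were C330027C09Rik, Neurl1b and Kif4 (0.0472 to 0.125), and closest to E2f7 were Rad51ap1, Chek1 and Iqgap3 (0.0930 to 0.111). E2f8 was less closely matched, by Troap (0.157), Ung and Ube2t. Tfdp1 lay nearest to Nup93, Rfc2 and Spcs3 (0.0276 to 0.0345) and Tfdp2 to Pml, Ebf3 and Rfc3 (0.0378 to 0.0465). The nearest genes of E2f4 were Oma1, G6pdx and Ndrg2 (0.0244 to 0.0321). No member was among the 3 nearest genes of another, and the closest pairs of members were E2f4 with E2f5 (0.146), Tfdp1 with Tfdp2 (0.154) and E2f3 with E2f5 (0.194).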

How the data were processed

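Total RNA of 6 P21 retinae was sequenced as paired-end, stranded, poly(A)-selected libraries. The authors deposited raw counts of reads per gene symbol, without normalization. Their methods name STAR, GRCm38 and HTSeq, with reads of more than 1 alignment allowed, whereas the submitters' processing notes list TopHat2, featureCounts and mm10, so the counting tool, and with it the fate of shared and antisense reads, is uncertain. The strand setting is not given in the sources used here.

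Genotype groups came from the sample titles. Genes with a sum of counts under 10 were removed, which left 16904. The main test was edgeR 4.0.16 in R 4.3.3 (TMM scaling, quasi-likelihood F test, Benjamini-Hochberg adjustment over all genes tested), tried first on simulated counts. The study's tool, DESeq2 1.42.0, was an alternative, beside 3 other scalings, 2 filters, robust dispersion, a replicate block and each retina left out. "Lower", "higher" and "fell" refer to an adjusted p of at most 0.05. The mean normalized count in the study's criteria used DESeq2 size factors. The 10 members were named in full. From each pathway list, the 3 genes with the largest mean and the 3 with the largest change past the threshold were eligible. Some genes that this rule names are not reported here. The members and lists were chosen with earlier results of these data known. Positions and exonic lengths came from GENCODE M21 (GRCm38), which matched 22711 of 24062 symbols (94.4%), and promoter sequence from RefSeq (GRCm38.p6).

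Library totals ran from 10343907 to 14203098 counts. No replicate pair looked like 1 library deposited again (chi-square of 8.97 to 26.6 for each degree of freedom), which does not show that the retinae came from separate animals. A count of 0 allows up to 3 counts, which covers counting error only.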

Additional observations from a re-analysis of the deposited data

How the results depend on the processing

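Over 14 alternatives, 31 of 140 values of the 10 genes lost the adjusted threshold and 2 changed sign, E2f3 without TKO replicate 3 (0.016, range -0.15 to 0.016) and E2f6 without DKO replicate 3 (0.043, range -0.34 to 0.043), and the others kept direction and side. E2f1, E2f2, E2f7, E2f8, Tfdp1 and Tfdp2 stayed below 0 in 84 of 84 fits and passed in 60. Robust dispersion left 2 members by the 3 criteria and 1 germline target. With total counts only, 2610 genes were lower and 778 higher, and E2f4, the pocket proteins and the E2F6 partners gave 0 higher (0, 0 and 1 at an unadjusted p under 0.05 by edgeR). With upper-quartile scaling E2f4 gave 0 (1 unadjusted) and the E2F6 partners 1. DESeq2 changed none of these list counts.

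With 1 retina left out, the counts ranged from 0 to 6 (members lower), 0 to 1 (members higher), 0 to 4 (3 criteria), 404 to 1973 (all genes lower), 214 to 1617 (all genes higher), 10 to 23 (G1 and S-phase targets), 1 to 6 (G1 cyclins), 2 to 6 (kinase inhibitors), 0 to 3 (MuvB), 3 to 4 (turnover), 0 to 2 (E2F6 partners, germline targets and pocket proteins), 1 to 4 (apoptosis) and 6 to 10 (dividing cells). For the 10 genes the lowest counts of lower genes came without TKO replicate 2 or DKO replicate 2, and the cause was not tested.

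The labels do not say whether retinae with the same replicate number form a pair. Correlations of deviations between the same numbers were 0.0658, -0.0499 and -0.199, and 1 of 6 retinae was closest to its own number. So few retinae cannot exclude a pairing. With the replicate number as a block, edgeR gave 82 genes lower and 24 higher, and 0 members and 0 genes of each list passed, while 6 members were lower, 1 was higher and 2 to 23 genes of each list moved the same way at an unadjusted p under 0.05. The block leaves fewer degrees of freedom.

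With the longest transcript in place of all exons, E2f1 to E2f3 made up 20.6% in TKO and 34.4% in DKO and E2f4 and E2f5 made up 47.2% and 28.2%. Counting error is large for Cdkn2a in TKO and for the 2 tested germline targets that did not pass, which had at most 7 counts in a library. Among the 10 genes it is largest for E2f2, E2f7 and E2f8 in TKO, which have the fewest counts.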
